A study of Mus musculus with 24 samples.

Results

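The genes described here were 10 transcription factor genes of acinar, ductal or secretory epithelium, namely Bhlha15, Xbp1, Spdef, Creb3l1, Elf3, Elf5, Ehf, Foxa1, Tfcp2l1 and Grhl2. They were taken from a list of symbols and each was found under 1 Ensembl identifier among the 63862 genes of the deposited tables. RNA sequencing had been done on C57BL/6 mice, on lacrimal gland (LG) and on lacrimal gland stem cell (LGSC) spheres grown from LG. The tissue groups, of 3 libraries each, were E17.5 LG, taken on that embryonic day, likewise E19.5 LG, and adult LG, and the labels gave no age for the adult glands beyond that word. The LGSC spheres were passage 2 cultures collected at day 5 (2 libraries), day 7, day 10 and day 14 (3 libraries each). They had been seeded as single cells of glands from mice aged 6 to 8 weeks and kept in Matrigel with a serum-free medium holding EGF, FGF10, Wnt3A and the ROCK inhibitor Y-27632, which all culture days shared. A library of passage 10 spheres at day 7 was made on another gene list and is given by value only. No label said whether replicates of a group came from separate animals or cultures, so the p-values below measure the spread between these libraries, which may be technical.

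Secretory epithelia rely on a small set of transcription factors that set up the machinery for making and releasing protein. XBP1 is activated in the unfolded protein response, when a messenger splicing step gives an active factor that switches on chaperone and secretory pathway genes. Bhlha15 encodes MIST1, which shapes the granule and vesicle apparatus of acinar cells. CREB3L1 is a factor bound to the endoplasmic reticulum membrane and released by proteolysis. ELF3, ELF5, EHF and SPDEF belong to the epithelial branches of the ETS family, and FOXA1 is a pioneer factor. TFCP2L1 and GRHL2 belong to the grainyhead and related CP2 family, in which GRHL2 maintains epithelial junction genes and TFCP2L1 is known from ductal cells. The values below are FPKM (fragments scaled by gene length and by library size), a scale on which genes of different length can be set side by side.

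For Xbp1 and Elf5, whose levels in adult LG stood apart from those in every other group, the 250 bases before the annotated start are shown from the RefSeq promoter table of build GRCm38.p6, both genes lying on the plus strand. Elf5 has 2 annotated starts, and gene-level values do not separate them. Capitals mark E-boxes (CANNTG), the motif class bound by MIST1 and other bHLH factors.
Xbp1, chr11:5520391-5520640: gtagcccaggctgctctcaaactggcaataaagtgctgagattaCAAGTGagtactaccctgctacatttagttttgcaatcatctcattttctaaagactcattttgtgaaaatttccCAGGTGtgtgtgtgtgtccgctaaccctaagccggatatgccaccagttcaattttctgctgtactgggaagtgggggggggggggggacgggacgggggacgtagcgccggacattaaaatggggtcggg
Elf5, first start, chr2:103411848-103412097: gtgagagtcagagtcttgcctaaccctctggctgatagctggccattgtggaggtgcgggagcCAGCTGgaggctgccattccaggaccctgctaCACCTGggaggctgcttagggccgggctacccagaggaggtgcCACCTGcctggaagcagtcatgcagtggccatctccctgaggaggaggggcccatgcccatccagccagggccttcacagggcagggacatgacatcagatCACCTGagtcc
Elf5, second start, chr2:103423818-103424067: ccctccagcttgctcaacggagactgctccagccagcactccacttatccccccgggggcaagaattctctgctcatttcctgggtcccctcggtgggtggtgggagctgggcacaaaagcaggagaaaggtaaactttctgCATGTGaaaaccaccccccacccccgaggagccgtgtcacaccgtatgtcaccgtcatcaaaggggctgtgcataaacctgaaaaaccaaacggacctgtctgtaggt
The Xbp1 stretch held 2 E-boxes, the first Elf5 stretch 4 and the second Elf5 stretch 1, and 66.2% of all 32851 stretches of the same length held at least 1. No stretch of Xbp1 or Elf5 held the ER stress response element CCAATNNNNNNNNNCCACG (searched on both strands, as were all motifs, and found in 0.113% of the stretches), the element TGACGTGG (0.563%) or the ETS letters AGGAAG (29.5%). AGGAAG lay in the Spdef stretch, from 40 to 35 bases before its start. Of the 10 genes, 7 had an entry in that table, and Creb3l1, Ehf and Grhl2 had none. These matches describe letters in a window and no binding was measured.

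Library depth and composition set limits on all values that follow. The 20 tissue and passage 2 libraries held 6434734 to 9258018 recovered reads. Adult LG replicate 3 and the LGSC libraries numbered 2 stood apart from the others of their groups, with correlations across 18288 genes of 0.862 and 0.889 to the other adult libraries (which correlated at 0.953) and of 0.908 to 0.945 against 0.963 to 0.974 among LGSC numbers 1 and 3. In adult LG replicates 1 and 2 the 10 most abundant genes took 60.4% and 59.6% of reads, against 31.3% in replicate 3. Acinar markers summed to 6950 to 16700 FPKM in adult LG and to 18.2 to 60.6 in the other 17 libraries. Mesenchyme markers summed to 4890 to 5870 in embryonic LG, 171 to 345 in adult LG and at most 3.56 in LGSC spheres. Pan-epithelial markers summed to 2530 to 2990 FPKM in adult LG, 723 to 960 at E17.5, 1450 to 1630 at E19.5 and 1560 to 4600 in LGSC spheres. Of these 20 genes 4, Epcam, Krt8, Ovol1 and Ap1m2, were listed at 0 in each of the 11 LGSC libraries. A value of 0 in these tables therefore says only that the gene was listed at 0.

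Averaged over each fit, 4 of the 10 (Creb3l1, Elf5, Xbp1 and Ehf) reached the 0.5 FPKM needed to be tested, and the other 6 are given mainly by their values. The plot of values by library shows that the tested genes did not share a single pattern.

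**Figure D1:**
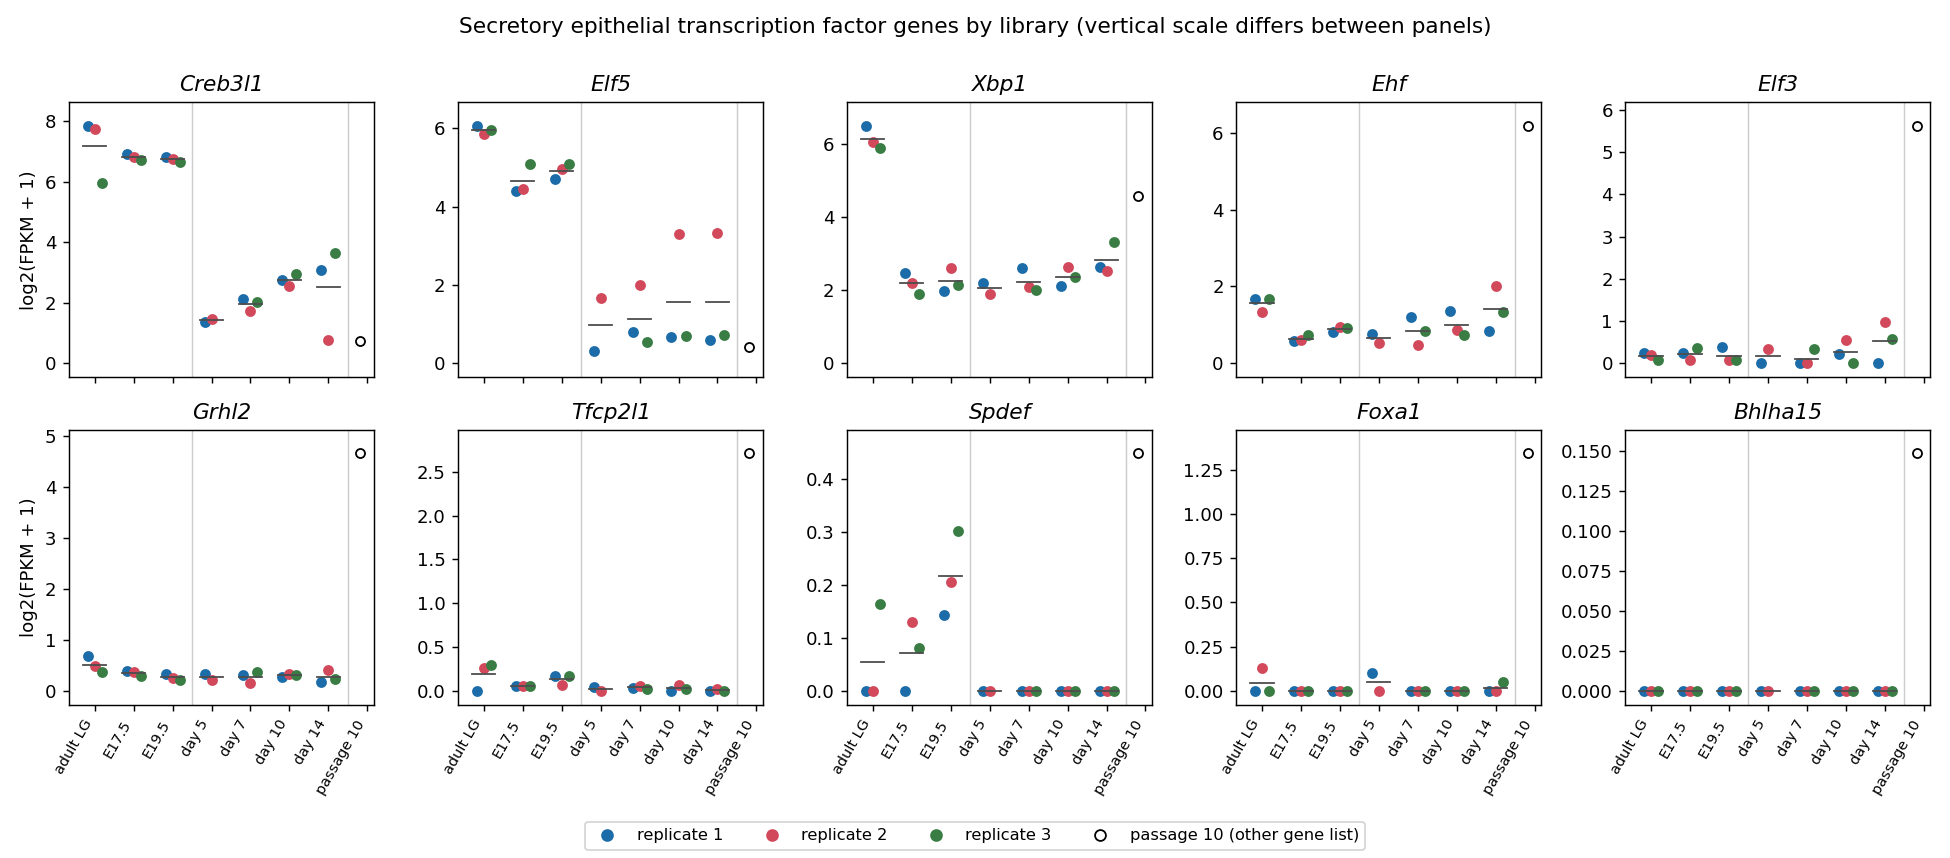
Levels of the 10 genes in each library as log2(FPKM + 1) on vertical scales that differ between panels, with points coloured by replicate number, bars for group means and an open circle for the passage 10 library. Among the 20 tissue and passage 2 libraries Xbp1 was high in adult LG alone (it was 22.9 FPKM in the passage 10 library), Creb3l1 and Elf5 were high in all 9 gland libraries, and Bhlha15 was at 0 in all 20 libraries.

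The number of tested genes that differed was read against all genes of each fit (limma on log2(FPKM + 1), Benjamini-Hochberg adjusted p under 0.05). At E17.5 against adult LG 3 of the 4 tested genes were lower, where 54.0% of 18578 genes were called in either direction. At E19.5 against adult LG 3 were lower, where 54.2% were called. In LGSC day 7 against adult LG 3 were lower, with 35.2% of 17698 genes called. In LGSC day 14 against adult LG 3 were lower, with 29.4% of 17872 called. In LGSC day 14 against E19.5 LG 2 were lower, with 48.4% of 17611 called. None of the 4 was called between E19.5 and E17.5 LG (1.74% of 18578 called). None was called between LGSC day 14 and day 7 (0% of 15744 called by limma on FPKM, with 1557 genes at an unadjusted p under 0.05, and 0 of 12112 by limma-voom) or in the slope over culture day (2.14% of 15584 called, 334 genes, and 783 with the replicate number as a block). Genes called lower numbered 4634, 4440, 3731 and 3186 in the 4 comparisons with adult LG in the order above, and 5332 in LGSC day 14 against E19.5 LG. Genes called higher were 53.8%, 55.9%, 40.2% and 39.4% of the calls in those 4 comparisons with adult LG. They were 79.7%, 79.4%, 74.2% and 76.5% when every library was scaled to its own recovered reads, which moved the median of all genes up by 0.51, 0.43, 0.59 and 0.65 on the log2 scale. The reason for giving both is that the recovered reads were 2.667 and 2.567 times the library size implied by the deposited values in adult LG replicates 1 and 2, and 0.832 to 1.129 times in the other 18 libraries. For LGSC day 14 against E19.5 LG the share called higher was 37.4%, and 49.5% with that scaling.

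**Figure D2:**
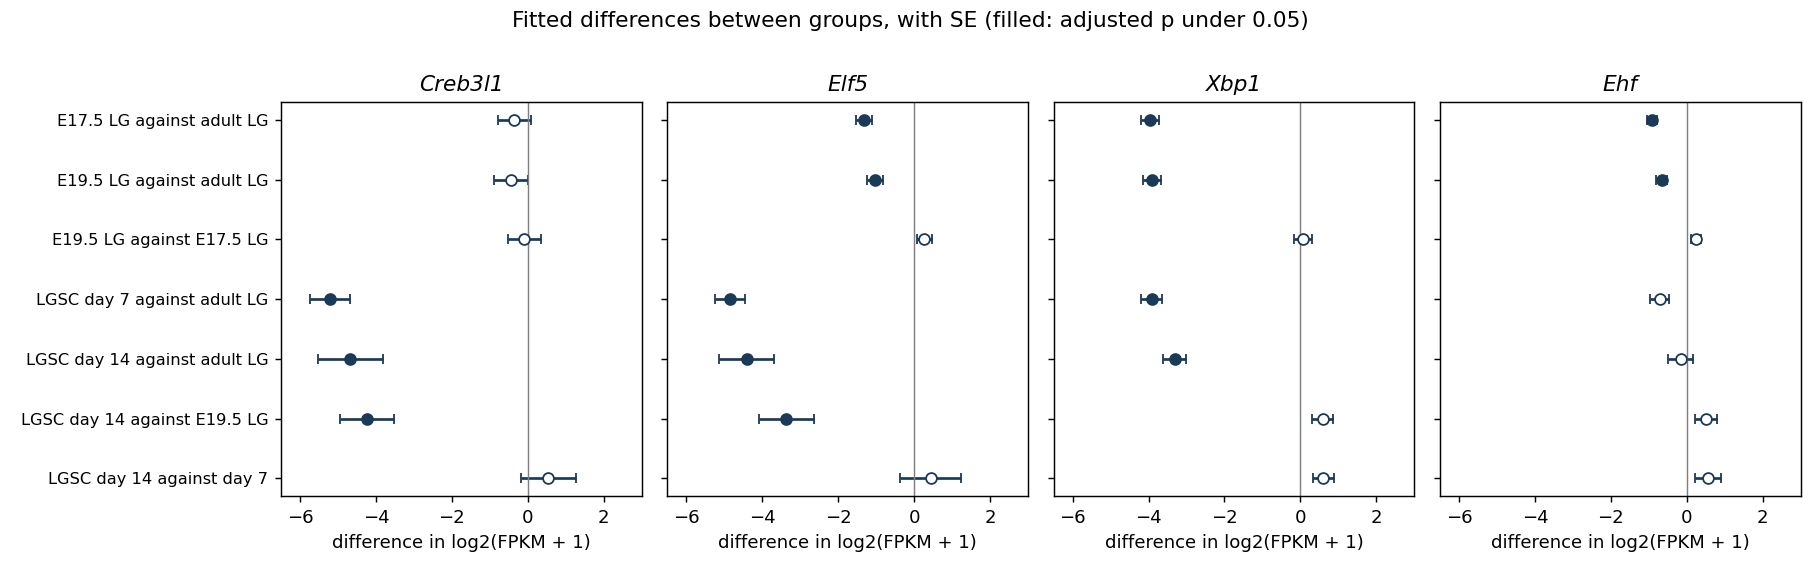
Fitted differences in log2(FPKM + 1) with their SE for Creb3l1, Elf5, Xbp1 and Ehf in 7 comparisons, the first group minus the second, filled where the adjusted p was under 0.05. Every filled point lies below 0, and Xbp1 differs from adult LG by -3.32 to -3.97 in embryonic LG and LGSC spheres alike.

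Xbp1 had the largest difference between adult and embryonic LG of the 4 tested genes. It stood at 89.8, 65.3 and 58.8 FPKM in adult LG, at 4.55, 3.61 and 2.69 at E17.5 and at 2.92, 5.14 and 3.45 at E19.5. LGSC spheres had 3.62 and 2.72 FPKM (day 5), then 5.09, 3.23 and 3.03 (day 7), 3.31, 5.24 and 4.13 (day 10), and 5.25, 4.81 and 9.04 (day 14). All adult libraries lay above all others, with no overlap, and below adult LG each group overlapped its neighbour in the order of means, from day 14 (6.37 ± 2.33, SD, n = 3) through day 10, E19.5, day 7 and E17.5 to day 5 (3.17 ± 0.634, n = 2). The mean in adult LG (71.3 ± 16.4, n = 3) was 19.7 times that at E17.5 and 18.6 times that at E19.5. On the log2 scale Xbp1 was lower, with a difference of -3.97 ± 0.24 (SE) at E17.5 (adjusted p = 4.56e-06), and -3.90 ± 0.24 for the later stage (adjusted p = 5.87e-06), and the embryonic stages did not differ beyond their spread (0.06 ± 0.24, adjusted p = 0.979). Against adult LG the LGSC values were lower, with differences of -3.92 ± 0.27 at day 7 (adjusted p = 0.000287) and -3.32 ± 0.31 at day 14 (adjusted p = 0.000891). With scaling to recovered reads these 4 differences were smaller but still called, at -2.98, -3.00, -2.84 and -2.18, or -3.54, -3.52, -3.36 and -2.76 relative to the median of all genes. LGSC day 14 and E19.5 LG differed by 0.59 ± 0.27 with an adjusted p of 0.118. That last difference passed the threshold with scaling to recovered reads (0.83, adjusted p = 0.048) and had the opposite sign relative to epithelial genes (-0.33, adjusted p = 0.447). The passage 10 library, made on another gene list, held 22.9 FPKM of Xbp1, above all passage 2 spheres. The gene-level values do not separate the spliced from the unspliced Xbp1 message, and in bulk samples fewer cells of a type and less RNA per cell cannot be told apart.

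Plasma cells, which also depend on XBP1, were looked for beside this result. Their 5 markers summed to 39.2 to 48.0 FPKM in adult LG, 2.14 to 3.84 at E17.5, 1.49 to 1.75 at E19.5 and 0.119 to 1.15 in LGSC spheres. Most of the adult sum was Mzb1 (36.2, 42.5 and 36.8), with Jchain at 1.32, 2.38 and 1.98, while Derl3 was listed at 0 in all 3 adult libraries and Pou2af1 in 2 of them. The part of these cells in the Xbp1 difference was not tested.

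The list of XBP1 targets of the unfolded protein response (22 genes for chaperones, translocon subunits and secretory pathway proteins) was read against the share of all genes called in either direction and the number called in the same direction. At E17.5 against adult LG, 9 of its 16 tested genes were lower, 1 was higher and 6 were not called, where 54.0% of all genes were called and 4634 of 18578 were lower. The median difference was -1.73 beside 0.05 over all genes. At E19.5 against adult LG the counts were again 9 lower, 1 higher and 6 not called (54.2% of all genes called, 4440 of 18578 lower), with a median of -1.75 beside 0.09. Serp1, which stabilises membrane proteins at the translocon, had the largest fall at E17.5 (-3.57 ± 0.50, adjusted p = 0.000404), followed by Sdf2l1, a chaperone partner of the endoplasmic reticulum (-3.56 ± 0.56, adjusted p = 0.000786). At E19.5 the order was Sdf2l1 (-3.98 ± 0.56, adjusted p = 0.000461) and then Serp1 (-3.68 ± 0.50, adjusted p = 0.000372). Pdia4, a protein disulfide isomerase, went the other way and was higher by 1.11 ± 0.29 at E17.5 (adjusted p = 0.0117) and, with a difference of 0.97 ± 0.29, also at E19.5 (adjusted p = 0.0214). In LGSC spheres against adult LG, 8 of 18 tested genes were lower and none higher at day 7 as at day 14. Of all genes 35.2% and 29.4% were called, and 3731 of 17698 and 3186 of 17872 were lower. The medians were -1.18 and -1.39 beside -0.08 and -0.06, and Serp1 (-3.16 and -3.37) and Sdf2l1 (-2.78 and -3.38) again had the largest falls. The fit of LGSC day 14 against day 7 tested only 15 targets, so some of the 18 passed the filter through their adult LG values. For those targets the direction was largely set by the filter. Between LGSC day 14 and E19.5 LG 2 of 15 tested genes were higher and none lower (48.4% of all genes called, 3187 of 17611 higher and 5332 lower). They were Dnajb11 (0.85 ± 0.14, adjusted p = 0.00346) and Dnajb9 (0.67 ± 0.17, adjusted p = 0.0183), which encode HSP40 cochaperones, while Xbp1 itself was not called there. No target was called between the embryonic stages, between LGSC day 14 and day 7 or in the slope.

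The adult libraries differed among themselves in the deposited values of these targets. Their recovered reads were 2.667, 2.567 and 1.103 times the implied library size in replicates 1, 2 and 3. For the same share of reads, the deposited values of replicates 1 and 2 are thus higher than those of replicate 3. The part of this scale in the differences below was not tested. Serp1 stood at 1960, 1590 and 418 FPKM in adult LG replicates 1, 2 and 3 and at 77.5 to 95.1 in embryonic LG. The sum of the 22 targets was 7710 and 6370 FPKM in adult LG replicates 1 and 2 but 1940 in replicate 3, inside the 1580 to 2180 of the embryonic libraries, whereas Xbp1 in replicate 3 (58.8 FPKM) stayed over 10 times the embryonic values. Without adult LG replicate 3 the lower genes among all tested numbered 5414 and 5215 of 18400 at E17.5 and E19.5. They numbered 4881 of 17282 in LGSC day 7 and 4358 of 17540 in LGSC day 14. The lower targets then numbered 14 at E17.5, 14 at E19.5, 16 in LGSC day 7 and 16 in LGSC day 14. Leaving out any other single adult LG or LGSC library took the LGSC counts to 3 to 5 at day 7 and 4 to 5 at day 14. The lower genes among all tested then numbered 2364 to 3124 and 1834 to 2498. With the scaling to recovered reads 4 targets were higher at E17.5 against adult LG and 3 at E19.5, with 9 lower in both, and 3 and 2 were higher in LGSC day 7 and day 14, with 7 and 6 lower.

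**Figure D3:**
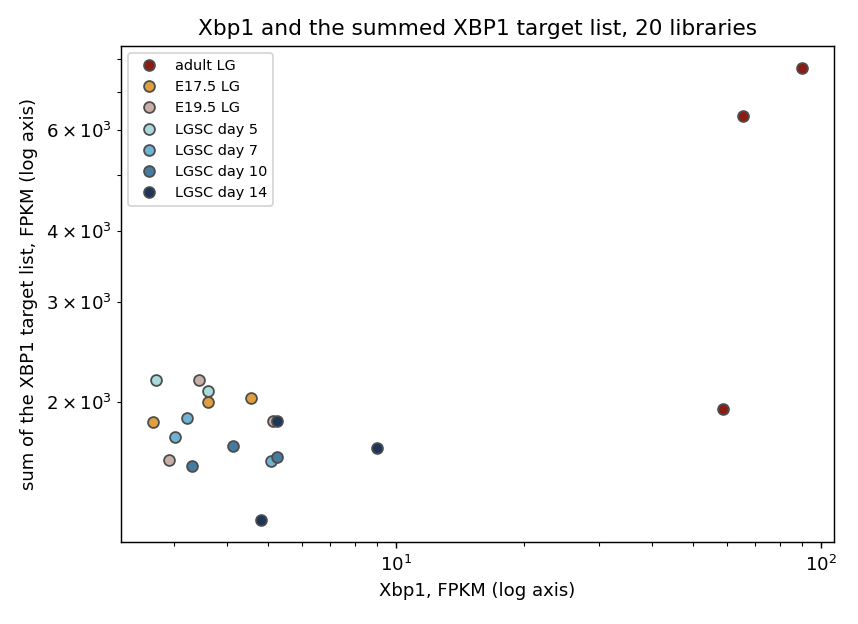
Xbp1 level against the summed level of its 22 listed targets in 20 libraries, both in FPKM on log axes, coloured by group. The 3 adult LG libraries lie to the right between 58.8 and 89.8 FPKM of Xbp1, of which 2 have sums of 6370 and 7710 and the other 1 of 1940.

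Creb3l1 was high in gland of all ages and low in LGSC spheres. Its values were 229, 212 and 60.4 FPKM in adult LG, 121, 112 and 105 at E17.5 and 112, 106 and 99.4 at E19.5. LGSC spheres had 1.58 and 1.76 FPKM (day 5), then 3.36, 2.31 and 3.09 (day 7), 5.69, 4.89 and 6.71 (day 10), and 7.54, 0.691 and 11.6 (day 14). The gland groups overlapped one another, and each gland library lay above each LGSC library. Markers of other cell types of the gland differed in the same direction, as the mesenchyme markers did. The 6 endothelial markers summed to 70.6 to 231 FPKM in gland and to at most 0.419 in LGSC spheres. Emcn was at 0 in all 11 LGSC libraries and at 8.66 to 28.3 FPKM in gland. Kdr was also at 0 in all 11, but it was low in gland too (at most 0.314 FPKM), as was Pecam1 (at most 0.737). The 6 leukocyte markers summed to 5.67 to 16.3 FPKM in gland and to 0.324 to 2.74 in LGSC spheres. Their part in the differences between gland and LGSC spheres was not tested. Against adult LG, E17.5 LG differed by -0.35 ± 0.44 (adjusted p = 0.529) and E19.5 LG by -0.44 ± 0.44 (adjusted p = 0.431), neither past the threshold. Adult LG replicates 1 and 2 had recovered reads of 2.667 and 2.567 times the implied library size, against 1.103 times in replicate 3. Without replicate 3, which left those other adult libraries, the differences were -0.97 (adjusted p = 7.02e-05) and -1.05 (adjusted p = 4.59e-05). With scaling to recovered reads they turned to 0.66 (adjusted p = 0.0174) and 0.46 (adjusted p = 0.0722), which relative to the median of all genes were 0.10 and -0.05, and the first was 0.13 (adjusted p = 0.831) relative to epithelial genes. In LGSC spheres the falls kept their call under each alternative run. Day 7 was lower than adult LG, with a difference of -5.21 ± 0.52 (adjusted p = 0.000894, a mean of 2.92 against 167 FPKM). Day 14 was lower than adult LG, with a difference of -4.67 ± 0.86 (adjusted p = 0.0098) and lower than E19.5 LG, with a difference of -4.24 ± 0.71 (adjusted p = 0.0038).

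Elf5, the ETS factor known for alveolar secretory cells of the mammary gland, showed graded levels, adult LG above embryonic LG above LGSC spheres. Adult LG had 65.9, 56.8 and 61.2 FPKM, E17.5 LG had 20.1, 20.9 and 33.1, and E19.5 LG had 25.2, 30.3 and 33.0. The adult libraries did not overlap the embryonic ones, the embryonic stages overlapped each other, and no gland library overlapped an LGSC library. Elf5 was lower than in adult LG, with differences of -1.31 ± 0.21 at E17.5 (adjusted p = 0.000816) and, for E19.5, of -1.04 ± 0.21 (adjusted p = 0.00301), and with adult means 2.48 and 2.08 times the embryonic ones. Both calls were lost with scaling to recovered reads (-0.32, adjusted p = 0.45, and -0.15, adjusted p = 0.726, or -0.89 and -0.67 relative to the median of all genes) and in 1 fit of all 20 libraries (adjusted p = 0.141 and 0.247). LGSC spheres were lower than adult LG, with differences of -4.84 ± 0.40 at day 7 (adjusted p = 0.000473) and -4.41 ± 0.72 at day 14 (adjusted p = 0.00651), and day 14 was lower than E19.5 LG, with a difference of -3.37 ± 0.72 (adjusted p = 0.00984).

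Within the cultures the Elf5 level went with the replicate number. The libraries numbered 2 held 2.16, 3.02, 8.82 and 9.10 FPKM at days 5, 7, 10 and 14, while the 7 libraries numbered 1 or 3 held 0.240 to 0.735, with no overlap. The same libraries differed in other epithelial genes. Krt18, a simple epithelial keratin, stood at 130 to 176 FPKM in number 2 and at 689 to 1730 in the others, and Krt7, a ductal keratin, at 0.997 to 3.63 against 7.20 to 17.4. Esrp2, an epithelial splicing factor, went the other way, at 24.3 to 41.2 FPKM in number 2 against 17.6 to 22.7. Of the basal and myoepithelial markers, Krt5, a basal keratin, stood at 2.05 to 5.52 FPKM against 0.395 to 1.54. Acta2, smooth muscle actin, stood at 1.02 to 4.72 against 9.31 to 180, and the sums of that list overlapped (1600 to 5820 against 2520 to 3580). The sum of the 20 pan-epithelial markers was 1560 to 2150 FPKM in number 2 and 2670 to 4600 in the others, with 16 of the 20 above 0 in both sets. The 5 nerve and Schwann cell markers summed to 8.70 to 144 FPKM against 2.13 to 15.9, with Tubb3 making up most of the sum in number 2, and the neuronal marker Elavl4 was at 0 in all 11. The part of these differences in the Elf5 values was not tested.

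Ehf, another ETS factor of epithelia, was low in all 20 tissue and passage 2 libraries and rested there on 17 to 151 reads a library. The passage 10 library, made on another gene list, held 71.5 FPKM of Ehf on 9479 reads. In the 20 libraries Ehf was read at its listed values. It stood at 2.16, 1.53 and 2.16 FPKM in adult LG, at 0.484, 0.521 and 0.672 at E17.5 and at 0.759, 0.918 and 0.891 at E19.5. The adult libraries lay above all embryonic ones, and Ehf was lower, with a difference of -0.91 ± 0.14 at E17.5 (adjusted p = 0.000687) and, for E19.5, of -0.66 ± 0.14 (adjusted p = 0.00404). Both calls were lost with scaling to recovered reads (-0.38, adjusted p = 0.184, and -0.17, adjusted p = 0.548), although relative to the median of all genes the differences were then -0.94 and -0.69. The LGSC values ran from 0.390 to 1.58 FPKM at days 5 to 10 and were 0.785, 3.04 and 1.53 at day 14. Day 7 differed from adult LG by -0.71 ± 0.25 (adjusted p = 0.0644, and 0.0293 in 1 fit of all 20 libraries), day 14 from adult LG by -0.16 ± 0.33 (adjusted p = 0.749) and day 14 from E19.5 LG by 0.51 ± 0.29 (adjusted p = 0.198). Without LGSC day 14 replicate 1 the last was 0.79 with an adjusted p of 0.0394.

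Over the culture days the 4 tested genes had slopes above 0, none of which passed the threshold. Creb3l1 was higher at each later day in numbers 1 and 3, up to 7.54 and 11.6 FPKM at day 14, but number 2 went from 4.89 at day 10 to 0.691 at day 14. Its slope was 0.11 ± 0.07 log2 units a day over all 11 libraries (adjusted p = 0.373), 0.22 without LGSC day 14 replicate 2 (adjusted p = 0.0204) and 0.21 without all libraries numbered 2 (adjusted p = 0.0215, an alternative chosen after the values were seen). Xbp1 had a slope of 0.09 ± 0.03 (adjusted p = 0.123), Ehf of 0.08 ± 0.03 (adjusted p = 0.2) and Elf5 of 0.07 ± 0.09 (adjusted p = 0.735). Day 14 against day 7 gave differences of 0.61 ± 0.28 for Xbp1, 0.54 ± 0.72 for Creb3l1, 0.44 ± 0.81 for Elf5 and 0.56 ± 0.35 for Ehf, with adjusted p from 0.523 to 0.875. Without LGSC day 14 replicate 2 the Elf5 difference was -0.45, and without LGSC day 14 replicate 3 the Creb3l1 difference was -0.035. The replicate block changed no call of these genes.

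**Figure D4:**
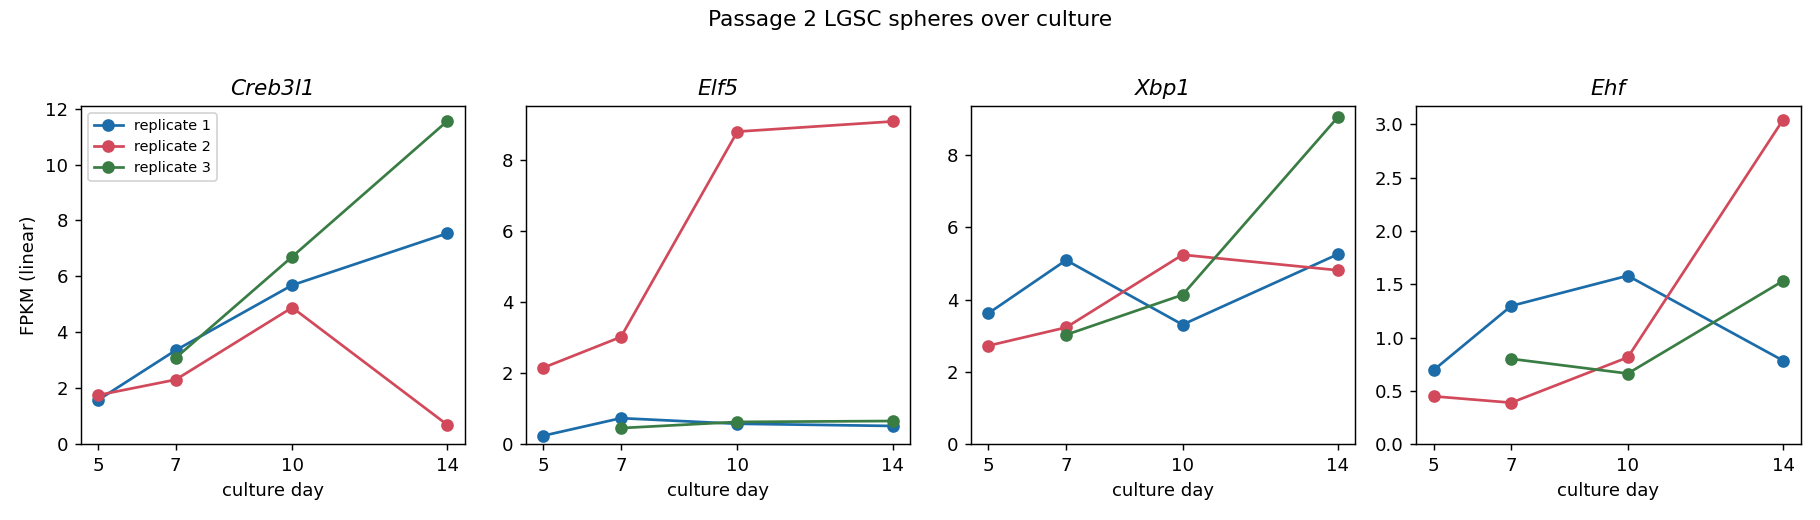
Levels of Creb3l1, Elf5, Xbp1 and Ehf in passage 2 LGSC spheres in FPKM on linear scales against culture day, with lines joining libraries of the same replicate number (number 3 has no day 5 library here). Elf5 is at 2.16 to 9.10 in number 2 and under 1 in numbers 1 and 3, and Creb3l1 reaches 7.54 and 11.6 at day 14 in numbers 1 and 3 and 0.691 in number 2.

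The other 6 genes stayed under 1 FPKM in all 20 libraries and fell under the filter. With no filter on low FPKM, 5 of them (all but Bhlha15) could be fitted, and 1 call was made, for Spdef at LGSC day 14 against E19.5 LG (-0.22 ± 0.05, adjusted p = 0.0232, on 0 reads against 2 to 4 a library). Grhl2 was above 0 in all 20, at 0.286 to 0.602 FPKM in adult LG, 0.227 to 0.303 at E17.5, 0.162 to 0.249 at E19.5 and 0.116 to 0.327 in LGSC spheres, on 8 to 25 reads a library. Elf3 was above 0 in 15 of 20 libraries and highest at LGSC day 14, with 0, 0.963 and 0.488 FPKM (0, 19 and 9 reads). In the glands Elf3 ran from 0.0468 to 0.309 FPKM on 1 to 6 reads. Grhl2 and Elf3 each share exon bases with an antisense gene in GENCODE M21 (169 for Grhl2 and 162 for Elf3), and without strand information the reads of such partners cannot be told apart. Tfcp2l1 was above 0 in 15 of 20 libraries, at 0, 0.201 and 0.222 FPKM in adult LG (up to 16 reads), 0.0330 to 0.121 in embryonic LG and at most 0.0413 in LGSC spheres, and its exons share 130 bases with an snRNA gene of the same strand. Spdef was listed at 0 in all 11 LGSC libraries and above 0 in 6 gland libraries on 1 to 4 reads each, with 0.105, 0.152 and 0.233 FPKM at E19.5. Foxa1 had 4 reads over 3 libraries, at 0.0948 FPKM in adult LG replicate 2, 0.0707 in LGSC day 5 replicate 1 and 0.0362 in LGSC day 14 replicate 3. Bhlha15 was listed at 0 in all 20 libraries, where 3 reads would be worth 0.0891 to 0.356 FPKM.

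Although Bhlha15 was listed at 0, targets of MIST1 in acinar cells could be read. Of the 4 listed, 3 were tested in the tissue fit, and 2 were lower and none higher in each of the 4 comparisons with adult LG. In these, 54.0%, 54.2%, 35.2% and 29.4% of all genes were called in either direction. The 2 lower genes, Gjb1 and Rab26, passed the filter through their adult LG values. Their direction was therefore largely set by the filter, and the count adds nothing to the values. Gjb1, the gap junction protein connexin 32, stood at 478, 444 and 105 FPKM in adult LG and at 0.151 to 0.659 in embryonic LG, and it was lower, with a difference of -7.64 ± 0.52 at E17.5 (adjusted p = 8.1e-06), with -7.63 ± 0.52 for E19.5 (adjusted p = 9.51e-06). LGSC spheres held at most 0.198 FPKM of Gjb1, with differences from adult LG of -8.11 ± 0.58 at day 7 (adjusted p = 0.000325) and -8.03 ± 0.59 at day 14 (adjusted p = 0.000424). Rab26, a small GTPase of secretory granules, stood at 14.4, 13.3 and 6.25 FPKM in adult LG and at 0.0405 to 0.602 elsewhere, and it was lower in all 4 comparisons (-3.06, -3.05, -3.40 and -3.33). Atp2c2, a secretory pathway calcium pump, stood at 0.129, 0.196 and 41.5 FPKM in adult LG, so that replicate 3 alone was high, and was not called against adult LG, while 1 gene of the list was higher without that library in each of the 4 comparisons. In LGSC spheres Atp2c2 was at 29.6 to 56.2 FPKM in the libraries numbered 2 and at 8.78 to 19.0 in the others, and day 14 was higher than E19.5 LG by 2.10 ± 0.41 (adjusted p = 0.00691). The fourth gene of the list, Rab3d, was under 1 FPKM in all 20 libraries.

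Of 19 related family members, 7 were tested in the tissue fit, of which 2 were lower and none higher at E17.5 against adult LG (54.0% of all genes called, 4634 of 18578 lower) and 2 were lower and 1 higher at E19.5 (54.2%, 4440 lower). In LGSC spheres against adult LG 2 of 7 were lower at day 7 (35.2% of all genes called, 3731 of 17698 lower) and 1 of 8 at day 14 (29.4%, 3186 of 17872 lower), with none higher. Atf6, the membrane sensor that acts beside XBP1 in the unfolded protein response, was lower at E17.5 (-1.33 ± 0.21, adjusted p = 0.000791) and E19.5 (-1.08 ± 0.21, adjusted p = 0.00256) than in adult LG, and lower in LGSC spheres at day 7 (-1.12 ± 0.27, adjusted p = 0.0193) and day 14 (-0.97 ± 0.29, adjusted p = 0.0459). Ubp1, a CP2 family member, was lower at E17.5 (-0.63 ± 0.20, adjusted p = 0.028), at E19.5 (-0.81 ± 0.20, adjusted p = 0.00936) and at LGSC day 7 (-0.76 ± 0.22, adjusted p = 0.0348). With scaling to recovered reads no related gene was lower in any of the 4 comparisons with adult LG and 2, 2, 2 and 1 were higher. Of all genes 8504, 8083, 5410 and 5242 were then higher and 2163, 2092, 1882 and 1614 lower. Creb3l4, a paralog of Creb3l1, was the only one that differed between the embryonic stages, at 8.19, 6.55 and 7.89 FPKM at E17.5 and 35.3, 32.5 and 35.1 at E19.5 (2.05 ± 0.34, adjusted p = 0.0284). It stood at 2.96, 4.32 and 10.5 in adult LG and at 1.24 to 5.11 in LGSC spheres, and was higher at E19.5 than in adult LG (2.50 ± 0.34, adjusted p = 0.000384) and lower at LGSC day 14 than at E19.5 (-3.01 ± 0.27, adjusted p = 3e-04). With scaling to recovered reads the difference between the embryonic stages was 1.94 ± 0.51, close in size, but its adjusted p was 0.146. At LGSC day 14 against E19.5 LG, Foxa3 was also lower (-0.90 ± 0.15, adjusted p = 0.00329) and Ubp1 higher (0.63 ± 0.21, adjusted p = 0.0487). Foxa2, a paralog of Foxa1, was at 0.248 to 4.07 FPKM in LGSC libraries numbered 1 and 3 and at 0 to 0.0622 in those numbered 2, and its slope did not pass the threshold (0.14 ± 0.06, adjusted p = 0.252). Atf4, Ets1, Grhl3 and Tfcp2 were listed at 0 in all 20 libraries.

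The tested genes were set beside all genes with a symbol and a mean of at least 1 FPKM by the Pearson correlation of log2(FPKM + 1) over the 20 libraries (10663 genes compared). The closest to Xbp1 were Gm2666 (r = 0.978), Pigr, the receptor that carries immunoglobulin A across secretory epithelium (0.978), and H2-Q2 (0.976). Creb3l1 lay closest to St3gal5 (0.977), Adam11 (0.972) and Fam181b (0.968), Elf5 to Dpp4 (0.976), Nr4a3 (0.973) and Coro1a (0.967), and Ehf to Gm15921 (0.828), 1700126G02Rik (0.818) and Furin (0.811). Among themselves, Creb3l1 and Elf5 correlated at 0.837, Xbp1 and Ehf at 0.62, Xbp1 and Elf5 at 0.522, Xbp1 and Creb3l1 at 0.464, Elf5 and Ehf at 0.228 and Creb3l1 and Ehf at 0.035. The 20 points fall into groups of gland and culture that share their composition, so these values describe the groups.

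How far the low values can be read was examined against the passage 10 library (25181801 recovered reads), of the same culture day as the day 7 spheres. Of the 12572 genes with at least 1 FPKM there, 40.4% had a mean day 7 level under 0.1 of it and 1108 genes (8.8%) were listed at 0 in all 20 libraries. Among the tested genes the ratio of the day 7 mean to passage 10 was 4.3 for Creb3l1, 4.27 for Elf5, 0.165 for Xbp1 and 0.0116 for Ehf. It was 0.00869 for Grhl2, 0.00453 for Tfcp2l1 and 0.00173 for Elf3. Passage, library and gene list differed together between these tables and cannot be told apart, so the low levels of Xbp1 in passage 2 spheres and of Ehf, Grhl2, Elf3, Tfcp2l1, Foxa1, Spdef and Bhlha15 in the 20 libraries are listed values and not evidence of absence.

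**Figure D5:**
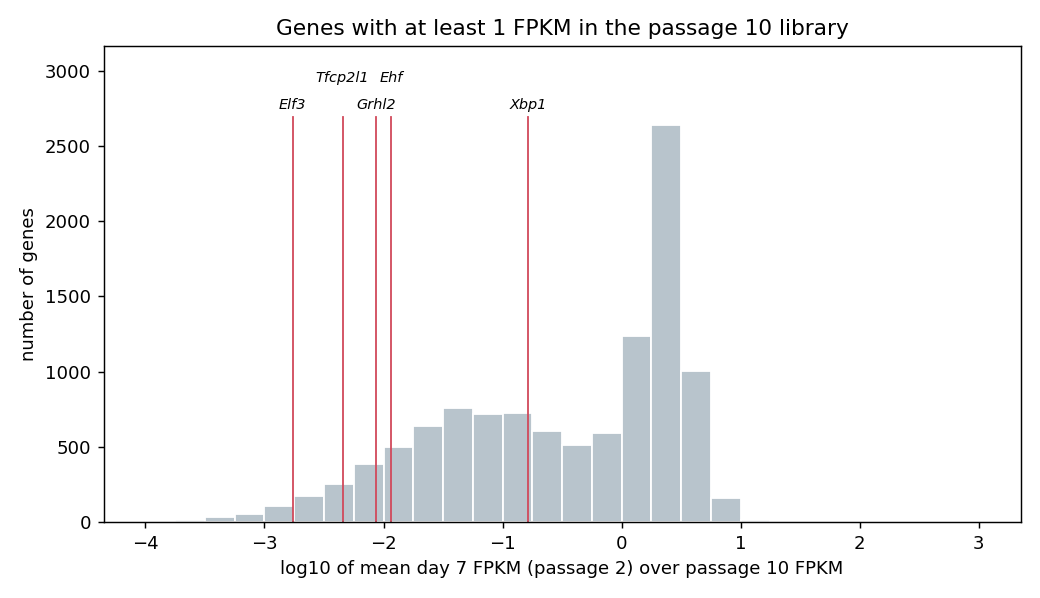
Number of genes by the log10 ratio of the mean day 7 passage 2 FPKM to the passage 10 FPKM, for genes with at least 1 FPKM in the passage 10 library and a ratio above 0 (1428 genes with a ratio of 0 are not drawn). Lines mark Elf3, Tfcp2l1, Grhl2, Ehf and Xbp1, which lie between 0.00173 and 0.165, while the tallest bar (2636 genes) lies at a ratio over 1.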

How the data were processed

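Poly-A RNA of LG and LGSC spheres was sequenced by the authors as paired-end reads. Per the submitters' processing notes the tools were CASAVA 1.8, HISAT2 2.0.5 and featureCounts 1.5.0-p3 with build NCBIM37, and the authors tested counts with DESeq2, which was not repeated. The paper lists genes that differed between LGSC day 7 and day 14, where the main limma fit above called none. The deposited values, 1 table per library, were read as FPKM, since low values converted to whole reads (92.6% to 93.6% of values within 0.01, up to 1000 reads), and the step that made them is not given in the sources used here. Gene lengths and symbols came from GENCODE M21 (52489 of 52636 Ensembl identifiers matched).

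Of 24 listed samples 21 were used, and day 5 replicate 3 and passages 6 and 20 were not analysed here. Tests used limma 3.58.1 (R 4.3.3) on log2(FPKM + 1) with trend, for genes averaging 0.5 FPKM or more over a fit's libraries. The log2(FPKM + 1) scale understates changes of low genes. The 3 tissue comparisons shared 1 fit of 9 libraries, and other comparisons were fitted on their own groups. The members and lists were chosen with earlier results of these data known. All 10 genes are named, the 2 largest rises and falls per related list, and the 3 most correlated genes, with Krt18, Krt7, Krt5, Esrp2, Acta2, Tubb3, Mzb1, Jchain and Foxa2 named after their values were seen. LGSC libraries of the same replicate number deviated together on average (mean r of 0.46 over 15 pairs, lowest 0.26). Between different numbers the mean r was -0.22 and the highest 0.44. The block was read as a pairing there, although no label gave one. Alternatives were another pseudocount (0.1), no filter, other scalings, limma-voom on recovered reads, the block, other sets of libraries and each replicate left out. Figures were drawn with matplotlib 3.10.9 in Python 3.11.15, on tables read with pandas 2.3.3 and numpy 2.4.6.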

Additional observations from a re-analysis of the deposited data

Results flagged for a closer look

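The passage 10 library entered no comparison, and 7 of the 10 genes had a higher value there than in any of the 20 other libraries. The values were 71.5 FPKM for Ehf (9479 reads, against at most 3.04 FPKM elsewhere), 48.4 for Elf3 (2552 reads, at most 0.963), 24.4 for Grhl2 (4993 reads, at most 0.602), 5.55 for Tfcp2l1 (1246 reads, at most 0.222), 1.54 for Foxa1 (122 reads, at most 0.0948), 0.365 for Spdef (20 reads, at most 0.233) and 0.108 for Bhlha15 (9 reads, at 0 elsewhere). That table was made on another gene list and is a single library, so the differences were not tested. No test for a single outlying library was run on groups of 2 or 3.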

How the results depend on the processing

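Of 528 values of the 4 tested genes under an alternative, 497 kept their direction and side of the threshold and 18 changed sign. With the sign kept, 6 lost a call and 7 gained one. Among those that changed sign, Creb3l1 at E17.5 against adult LG also passed the threshold with scaling to recovered reads (adjusted p = 0.0174). Of 132 counts of called genes among the 4, 129 stayed within 1.5 times. With scaling to recovered reads 1 of the 4 was called at E19.5 against adult LG, where 10175 of 18578 genes were called. Creb3l1 then turned to 0.66 and 0.46 at E17.5 and E19.5 against adult LG, Xbp1 to -0.027 between the embryonic stages and Ehf to 0.50 at LGSC day 14 against adult LG. That scaling moves all genes together, and relative to the median of all genes these were 0.10, -0.05, 0.005 and -0.08. The median of ratios gave -0.021 for Xbp1 between the embryonic stages. Relative to epithelial genes, of which Epcam and Krt8 were listed at 0, Creb3l1 gave 0.13 at E17.5 against adult LG, Xbp1, Elf5 and Ehf gave -0.32, -0.11 and -0.13 between the embryonic stages, and Xbp1 and Ehf gave -0.33 and -0.42 at LGSC day 14 against E19.5 LG. Leaving out 1 library gave -0.12 to 0.20 for Xbp1 between the embryonic stages (-0.09 without E17.5 LG replicate 3, -0.12 without E19.5 LG replicate 2), -0.46 to 0.13 for Ehf at LGSC day 14 against adult LG (highest without LGSC day 14 replicate 1), -0.45 to 0.92 for Elf5 and -0.035 to 1.41 for Creb3l1 at LGSC day 14 against day 7 (lowest without LGSC day 14 replicates 2 and 3) and -0.022 to 0.12 for the Elf5 slope (lowest without LGSC day 14 replicate 2). Without all libraries numbered 2, Elf5 gave -0.005 between those days and 1 of the 4 genes had a called slope (280 of 15261 genes called). The cause was not tested for the changes under the other settings. Over all leave-one-out fits the called genes among the 4 numbered 3 to 4 at E17.5 and at E19.5 against adult LG, 2 to 3 at LGSC day 14 against E19.5 LG and 0 to 1 for the slope. All genes called in these fits numbered 8428 to 11669, 8388 to 11701, 6172 to 8808 and 11 to 384. The tested genes numbered 18400 to 18661 in both comparisons with adult LG, 17431 to 17824 at LGSC day 14 against E19.5 LG and 15490 to 15673 for the slope.

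With the replicate block none of 32 calls and no sign changed. Genes called between the embryonic stages were 323, 100 with the block and 50 to 1736 with 1 library left out, and up to 2158 relative to epithelial genes. For the slope they were 334, 783 with the block, 0 for days 7, 10 and 14 alone and 11 to 384 with 1 library left out. LGSC day 7 and day 14 against adult LG gave 6238 and 5260 genes, 3770 to 8135 and 2756 to 7056 with 1 library left out, and 8664 and 8133 in 1 fit of all 20 libraries, and day 14 against day 7 gave 0, with 50 in that fit. For 6 of the 10 genes the values rested on at most 25 reads in each of the 20 libraries, and the cause of these low counts was not tested. With no filter on low FPKM 1 call was made among them (Spdef, LGSC day 14 against E19.5 LG).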
